A study of Mus musculus with 4 samples.

Results

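The 7 genes described here encode the receptor chains through which myeloid progenitors receive macrophage, granulocyte and granulocyte-macrophage colony-stimulating factors, interleukin-3 and interleukin-6. They were chosen by symbol alone, as the gene expression rows named Csf1r, Csf3r, Csf2ra, Csf2rb, Csf2rb2, Il3ra and Il6ra, and make up 7 of the 32285 genes counted. Kit+ mouse bone marrow cells carrying the CD45.2 marker, 10 weeks after transplantation, were profiled by CITE-seq, in which RNA and antibody barcodes are read from the same single cells. There was 1 library for each of 4 groups, which the labels call control, Mll3SI, Mll4SI and Mll3/4SI, with the library names wt, mll3KI, mll4KI and dKI. The labels give no further description of the alleles, the recipients or the number of mice, so each ratio below compares 2 libraries, has no replicate check and carries no test. All 3 comparisons use the same control library. Intervals are exact 95% intervals and cover counting error only.

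Csf1r is the receptor tyrosine kinase for M-CSF and IL-34 and is a hallmark of the monocyte and macrophage lineage. Csf3r, the G-CSF receptor, pairs with itself and drives neutrophil production. The receptors for GM-CSF, IL-3 and IL-5 each combine a ligand-specific alpha chain, such as Csf2ra or Il3ra, with the common beta chain Csf2rb, and the mouse has a further beta chain, Csf2rb2, that serves IL-3 alone. Il6ra is the alpha chain for IL-6 and signals through Il6st (gp130). Apart from Csf1r, these receptors have no kinase domain and rely on JAK kinases and STAT transcription factors.

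The stretches of DNA before 4 of the start sites are shown because their genes carry the patterns described below. Il3ra had a higher level in monocyte-like and stem-like cells of the Mll4SI and Mll3/4SI libraries than of the other two, Csf2rb2 was more than 2-fold above control in stem-like cells of Mll3/4SI, and Csf3r and Csf2ra had their highest named-class levels in granulocyte-like cells. Each line gives the 150 bases before the RefSeq start site on GRCm38.p6, 5′ to 3′ on the gene's strand, at chr14:14346345-14346494 (+) for Il3ra, chr15:78305722-78305871 (-) for Csf2rb2, chr4:126024509-126024658 (+) for Csf3r and chr19:61228419-61228568 (-) for Csf2ra. Capitals mark matches to GAGGAA, a core bound by the myeloid factor PU.1, or to TTGCNNAA, a C/EBP site.

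Il3ra: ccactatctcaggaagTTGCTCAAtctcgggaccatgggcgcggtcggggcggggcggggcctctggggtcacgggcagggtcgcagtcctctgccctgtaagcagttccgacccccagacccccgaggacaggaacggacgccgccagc

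Csf2rb2: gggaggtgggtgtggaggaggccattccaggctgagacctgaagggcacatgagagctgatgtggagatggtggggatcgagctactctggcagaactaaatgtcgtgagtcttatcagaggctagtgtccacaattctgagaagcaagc

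Csf3r: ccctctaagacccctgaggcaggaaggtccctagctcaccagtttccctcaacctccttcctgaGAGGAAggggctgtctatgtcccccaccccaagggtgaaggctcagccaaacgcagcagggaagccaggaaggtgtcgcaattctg

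Csf2ra: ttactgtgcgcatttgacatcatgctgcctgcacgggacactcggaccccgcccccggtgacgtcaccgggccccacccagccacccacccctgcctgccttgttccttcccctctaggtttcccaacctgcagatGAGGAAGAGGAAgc

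RefSeq promoters from 250 bases before to 50 bases after the start were at hand for 5 of the 7 genes, the 4 above and Il6ra. On either strand GAGGAA occurred in 4 of these 5 and in 28.3% of all 32851 promoters of that length. The Csf2rb2 matches, at -167 and +30 on the opposite strand, lie outside the stretch shown. TTGCNNAA occurred in 1 of the 5, that of Il3ra, as TTGCTCAA at -134, and in 10.8% of all promoters. The RUNX core TGTGGT (16.8% of all promoters) and an interferon-type motif, a pair of GAAA copies with 2 bases between them (3.44%), occurred in none of the 5. The motifs do not overlap one another in the stretches shown, except for the adjoining GAGGAA copies of Csf2ra. A match is a description of letters, not a measured site.

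In the GENCODE annotation of GRCm38 Csf2rb (15:78325752-78353847, plus strand) and Csf2rb2 (15:78282507-78305721, minus strand) are neighbours 20030 bases apart. They are close copies, with 18.4% and 19% of the 50-base windows of their longest transcripts shared exactly and a longest shared run of 242 bases. No window was shared in the last 1000 bases, where 3′ libraries read, but counts of either gene remain uncertain to the extent that reads came from shared stretches. Exons of Csf1r (chromosome 18) overlap Hmgxb3 on the other strand, those of Il3ra (14:14346275-14356011, plus) overlap Gm48860 and those of Il6ra (3:89864059-89913196, minus) overlap Gm42809. Whether the counting used strand is not given in the sources used here. Csf3r (4:126024550-126044440, plus) and Csf2ra (19:61223957-61228429, minus) have no such overlap.

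The libraries held 7887 to 11678 cell barcodes and 140546094 to 177753607 gene UMIs (unique molecular identifiers, one per captured RNA), and 31707 of 36459 barcodes were kept, with a median of 12800 to 19185 UMIs per cell. Any 2 libraries shared 16 to 29 barcodes. Kit itself was read at 100.2 to 112 CPM (a gene's UMI count scaled to the total of gene UMIs in the cells summed, on the usual CPM scale) in all 4. UMIs come from the 3′ ends of RNA and are not scaled by length, so levels are compared within a gene and not between genes. The labels give no sex, and Xist was read at 0.0315, 0.194, 1148 and 1360 CPM in the control, Mll3SI, Mll4SI and Mll3/4SI libraries, while the Y-linked Ddx3y was read at 41.3, 41.7, 0.960 and 0.900 CPM. The sex of the cells and the Mll4SI alleles therefore cannot be told apart in any value below. None of the 13 surface antibodies binds one of the 7 receptors, so only RNA was measured.

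Cells were grouped into 26 clusters without using the 7 genes, and clusters were named from marker genes. The granulocyte-like class (progenitors with Elane, Mpo, Fcnb or Ltf) held 4189, 5069, 7850 and 3793 cells in the control, Mll3SI, Mll4SI and Mll3/4SI libraries. The monocyte-like class held 1096, 1443, 1251 and 422 cells, and the HSC/MPP-like class (stem and multipotent progenitors) held 519, 565, 392 and 867. Several clusters came almost wholly from 1 library and may reflect that library rather than a cell type. Clusters 1, 7 and 16 (Mll4SI) and 13, 17 and 23 (Mll3/4SI) held 66.1% of the Mll4SI and 58.3% of the Mll3/4SI granulocyte-like cells, against 2.86% of the control and 2.23% of the Mll3SI cells. Cluster 18, with 661 of its 662 cells from Mll3/4SI, held 76.2% of the HSC/MPP-like cells of that library, and cluster 8 held the rest and nearly all of that class elsewhere. Cluster 10, with 1262 of its 1281 cells from Mll3/4SI, met the naming rule of no class and is called by its number. Its leading genes were Cpa3, Ly6e, Ms4a6c and Mpo.

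**Figure D1:**
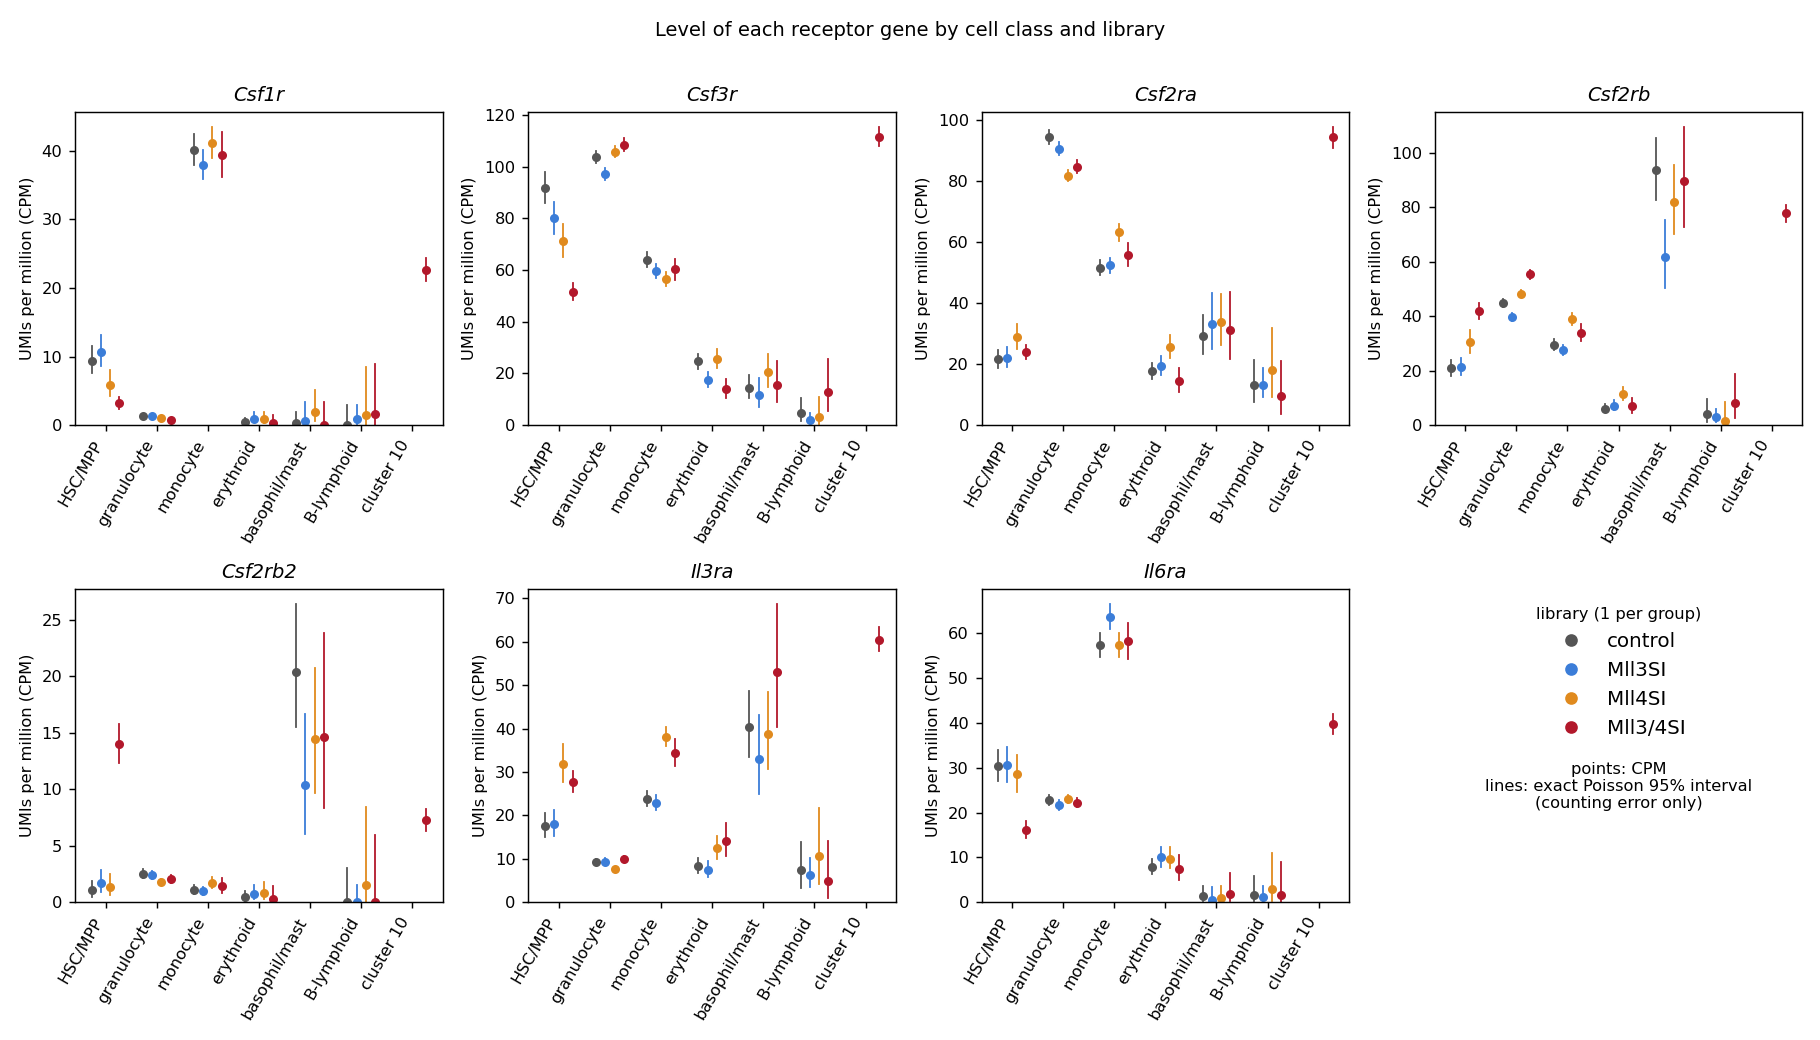
Level of each receptor gene (vertical axes, CPM, separate linear scales) in the cell classes of each library and in cluster 10, with points for the 4 libraries and lines for exact Poisson 95% intervals. Csf1r stood near 40 CPM in the monocyte-like cells of every library and near 1 in granulocyte-like cells, while Csf2rb2 stood highest in basophil/mast-like cells and, in Mll3/4SI alone, at 14 CPM in HSC/MPP-like cells.

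Csf1r was mainly a monocyte-class transcript and differed little there between libraries. Where 4 values are listed below, they run from control through Mll3SI and Mll4SI to Mll3/4SI, and 3 ratios run likewise. In monocyte-like cells it was read at 40.2 CPM in control and at 37.9, 41.1 and 39.3 CPM in Mll3SI, Mll4SI and Mll3/4SI. The 4 intervals overlapped, and the log2 ratios to control (of CPM + 1, as throughout) were -0.08, 0.03 and -0.03. Granulocyte-like cells had 1.32, 1.27, 1.01 and 0.811 CPM, and basophil/mast-like cells held at most 4 UMIs per library. Within the monocyte-like class Csf1r was higher in cluster 4 (56.2, 48.8, 54.3 and 52.0 CPM) than in cluster 2 (30.6, 31.4, 32.1 and 31.2 CPM) in all 4 libraries. With every cell thinned to 3000 UMIs, 12.4%, 9.74%, 13% and 10.9% of monocyte-like cells had a Csf1r UMI, against 0.159% to 0.322% of granulocyte-like cells and at most 0.195% of erythroid-like cells. Unthinned, the monocyte-like shares were 56.9%, 50.7%, 56.8% and 60.4%.

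Csf1r differed between libraries in HSC/MPP-like cells, where it was read at 9.40, 10.7, 5.92 and 3.17 CPM. The log2 ratio of Mll3SI was 0.17, that of Mll4SI -0.59 (interval of the ratio without the added CPM, -1.24 to -0.11) and that of Mll3/4SI -1.32 (-2.07 to -1.08). The low Mll3/4SI value came from cluster 18, at 0.628 CPM, since in cluster 8 that library had 11.7 CPM, a log2 ratio of 0.29 (-0.21 to 0.83).

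Csf3r had its highest named-class level in granulocyte-like cells and barely varied there. Granulocyte-like cells had 103.7, 97.2, 105.7 and 108.5 CPM, and the log2 ratios were -0.09, 0.03 and 0.07. Monocyte-like cells had 63.9, 59.7, 56.4 and 60.3 CPM, and erythroid-like cells had 24.6, 17.5, 25.6 and 13.8. HSC/MPP-like cells had 91.8, 80.05, 71.2 and 51.5 CPM, so the control library was the highest and Mll3/4SI the lowest. The log2 ratios there were -0.20 (-0.34 to -0.05), -0.36 (-0.53 to -0.20) and -0.82 (-0.97 to -0.70). Unlike Csf1r, Csf3r was also lower in cluster 8 of Mll3/4SI, at 63.9 CPM and a log2 ratio of -0.52 (-0.72 to -0.32), and stood at 47.8 CPM in cluster 18. The summed level of 17 granulocyte markers in HSC/MPP-like cells was highest in Mll4SI (15158 CPM) and lowest in Mll3/4SI (4728 CPM), with none of the 17 at 0, and its part in the Csf3r values was not tested.

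Csf2ra, the GM-CSF alpha chain, was highest in granulocyte-like cells among the named classes. It was read there at 94.4, 90.6, 81.6 and 84.6 CPM, and in monocyte-like cells at 51.5, 52.3, 63.2 and 55.8 CPM. Its log2 ratios were -0.06, -0.21 and -0.16 in granulocyte-like cells and 0.02, 0.29 and 0.11 in monocyte-like cells, so that the Mll4SI library was lowest in the first class and highest in the second. HSC/MPP-like cells had 21.6, 22.0, 28.7 and 24 CPM, basophil/mast-like cells 29.2 to 33.8 CPM and erythroid-like cells 14.3 to 25.6 CPM. Both stem-like clusters of Mll3/4SI had nearly the same Csf2ra level, with 24.1 CPM in cluster 8 and 23.9 in cluster 18.

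Csf2rb, the beta chain shared by the GM-CSF, IL-3 and IL-5 receptors, was highest in basophil/mast-like cells (93.6, 61.9, 82.1 and 89.8 CPM). Granulocyte-like cells had 44.8, 39.9, 48.3 and 55.3 CPM, and monocyte-like cells 29.5, 27.5, 38.9 and 34.0. In HSC/MPP-like cells it was read at 20.9, 21.4, 30.5 and 41.8 CPM. The control and Mll3SI values were the lower pair over each of these 3 classes, but in granulocyte-like cells this order depended on the clusters counted. In Mll4SI the log2 ratios were 0.11 in granulocyte-like, 0.39 (0.27 to 0.52) in monocyte-like and 0.53 (0.26 to 0.84) in HSC/MPP-like cells, and in Mll3/4SI they were 0.30 (0.24 to 0.37), 0.20 (0.04 to 0.36) and 0.97 (0.77 to 1.23). Without clusters 1, 7, 13, 16, 17 and 23 the granulocyte-like ratio was -0.020 in Mll4SI and 0.10 in Mll3/4SI, and in Mll4SI only 2 of 5 shared granulocyte-like clusters were above control. Within the Mll3/4SI HSC/MPP-like cells, cluster 18 had 46.8 CPM and cluster 8 had 25 CPM, a log2 ratio of 0.25. Marker sums of the classes rich in Csf2rb also differed between libraries in these cells. The summed basophil/mast markers were 403, 335, 722 and 1703 CPM in HSC/MPP-like and 177, 153, 228 and 247 CPM in monocyte-like cells. Summed granulocyte markers in monocyte-like cells were 16929, 18040, 24424 and 17054 CPM, and in HSC/MPP-like cells 8038, 8097, 15158 and 4728 CPM. The part of these markers in the Csf2rb values was not tested.

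Csf2rb2, the IL-3-specific beta chain, was sparse in every class except basophil/mast-like cells, where 58, 17, 29 and 16 UMIs gave 20.4, 10.4, 14.4 and 14.7 CPM. Granulocyte-like cells had 1.79 to 2.51 CPM and monocyte-like cells 0.982 to 1.69. HSC/MPP-like cells held 10, 14 and 9 UMIs in control, Mll3SI and Mll4SI, or 1.04, 1.69 and 1.33 CPM, and 260 UMIs or 14 CPM in Mll3/4SI. The last of these stood apart from the others, with a log2 ratio of 2.87 (2.84 to 4.82 without the added CPM). It lay in cluster 18, which held 256 UMIs (17.9 CPM), whereas cluster 8 of the same library held 4 UMIs (0.936 CPM, a log2 ratio of -0.08). The Mll3/4SI level also differed between cells with Hashtag1 and Hashtag2, antibodies whose meaning the labels do not give. HSC/MPP-like cells had 7.04 CPM (5.17 to 9.36) with Hashtag1 and 18.01 CPM (15.6 to 20.6) with Hashtag2. In control these values were 0.836 and 1.11 CPM. Csf2rb in the same Mll3/4SI cells was at 28.8 and 48.5 CPM. The source of the hashtag difference was not tested.

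Cluster 18 also carried RNA of basophil and mast cell markers beside its stem markers, and their part in the Csf2rb2 level was not tested. The 18 HSC/MPP markers summed to 5273 CPM there and the 11 basophil/mast markers to 2055 CPM, with Cyp11a1, Cma1 and Tpsb2 at 0. The same 2 sums were 3651 and 403 CPM in cluster 8 of the control library, where Prss34, Cma1 and Tpsb2 were at 0. Fcer1a was read at 431 CPM and Cpa3 at 1042 CPM in cluster 18, but Mcpt8, at 2.16 CPM, and Prss34, at 0.209, were far below their 1051 and 620 CPM in the basophil/mast-like cells of the control. A platelet-lineage signal was present as well, since 10 megakaryocyte markers summed to 704 CPM in cluster 18 and 45.6 CPM in cluster 8 of the control.

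Il3ra, the IL-3 alpha chain, was higher in the Mll4SI and Mll3/4SI libraries than in control and Mll3SI in monocyte-like and HSC/MPP-like cells. In monocyte-like cells it was read at 23.8 and 22.9 CPM in control and Mll3SI but at 38.1 and 34.4 CPM in Mll4SI and Mll3/4SI. The log2 ratios were -0.05 (-0.20 to 0.09), 0.65 (0.54 to 0.81) and 0.51 (0.36 to 0.70). Both monocyte-like clusters showed the same order, with 21.8, 21.4, 36.7 and 30.8 CPM in cluster 2 and 27.3, 25.5, 40.1 and 40.0 CPM in cluster 4. The libraries were mixtures of cells with 2 hashtag antibodies, whose meaning the labels do not give. Cells with Hashtag1 had 27.8, 22.4, 38.8 and 34.8 CPM and those with Hashtag2 had 20.6, 23.5, 36.1 and 33.4, which are parts of the same libraries and no replicates. The summed basophil/mast markers, whose class had the highest Il3ra level of the named classes, were also higher in Mll4SI and Mll3/4SI. The single markers differed in their order. Their sums in monocyte-like cells were those given for Csf2rb, Cma1 and Tpsb2 were at 0 in all 4 libraries, and Cyp11a1 was at 0 in Mll3SI. Cyp11a1 was highest in control, at 0.957 CPM, with 0.0313 CPM in Mll4SI and 0.140 in Mll3/4SI. Of the marker genes Cpa3, a mast cell protease also read in progenitors, moved most, at 32.6, 13.4, 84.2 and 78.7 CPM. Lmo4 (69.4, 64.1, 80.5 and 82.6 CPM) had the same pairs, as did Fcer1a on 1, 2, 26 and 9 UMIs. Gata2 (10.6, 8.71, 15.8 and 10.7 CPM) was highest in Mll4SI, with Mll3/4SI close to control. Mcpt8, a basophil protease (19.9, 28.0, 9.63 and 26.0 CPM), and Hdc (41.5, 37.0, 34.2 and 47.0 CPM) were lowest in Mll4SI. Ms4a2 was lowest in Mll3/4SI, and Prss34 was at no more than 0.184 CPM. Their part in the Il3ra level was not tested.

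HSC/MPP-like cells had Il3ra at 17.6, 18.1, 31.8 and 27.7 CPM and log2 ratios of 0.03, 0.82 (0.55 to 1.15) and 0.62 (0.40 to 0.91). Clusters 8 and 18 of Mll3/4SI were close, at 27.2 and 27.9 CPM, and cluster 8 alone gave a log2 ratio of 0.59 (0.27 to 0.97). The basophil/mast sums of 403, 335, 722 and 1703 CPM again put Mll4SI and Mll3/4SI above the other two. Cpa3 was at 166, 82.3, 462 and 869 CPM, and Ms4a2, Gata2, Fcer1a and Lmo4 had the same pairs. Mcpt8, at 42.0, 58.9, 16.3 and 10.4 CPM, ran the other way, and Hdc and Cyp11a1 did not follow Cpa3. In cluster 8 of Mll3/4SI the basophil/mast sum was 522 CPM and in cluster 18 it was 2055 CPM, beside nearly equal Il3ra. In HSC/MPP-like cells Cma1 and Tpsb2 were at 0 in every library and Prss34 was at 0 in control and Mll4SI, and the part of these markers was not tested. Erythroid-like cells had 8.42, 7.48, 12.5 and 14.1 CPM of Il3ra, beside basophil/mast sums of 348, 297, 558 and 447 CPM. Basophil/mast-like cells had 40.5, 33.1, 38.8 and 53.2 CPM, where the libraries overlapped within their intervals. The 2 libraries with the higher Il3ra in monocyte-like and HSC/MPP-like cells were also the 2 with Xist, as given above.

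Among granulocyte-like cells the Il3ra level depended on which clusters were counted. Over the whole class it was 9.24, 9.36, 7.67 and 9.98 CPM, with log2 ratios of 0.02, -0.24 (-0.42 to -0.11) and 0.10 (-0.04 to 0.27). Without the 6 library-specific clusters the Mll4SI ratio became 0.36 and the Mll3/4SI ratio 0.60. In Mll3/4SI, 8 clusters had at least 50 cells from both that library and the control, and Il3ra was read higher in 8 of 8, by log2 ratios of 0.21 to 0.73. Il6ra was higher in 8 of 8 of these clusters too and Csf2rb in 7 of 8, so the count is not particular to Il3ra. The Elane-high cluster 5 had 16.4 CPM in control and 21.1 in Mll3/4SI, and cluster 14, also Elane-high, had 15.3 and 22.3. In Mll4SI these early clusters stood at 23.2 and 20.6 CPM, but only 2 of 5 shared clusters were above control. The library-specific clusters were low, with 6.37, 2.85 and 5.67 CPM in clusters 1, 7 and 16 of Mll4SI and 6.25, 6.32 and 5.91 CPM in clusters 13, 17 and 23 of Mll3/4SI. Summed granulocyte markers in the class were 256170, 223292, 302073 and 316696 CPM, and their part in these values was not tested.

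**Figure D2:**
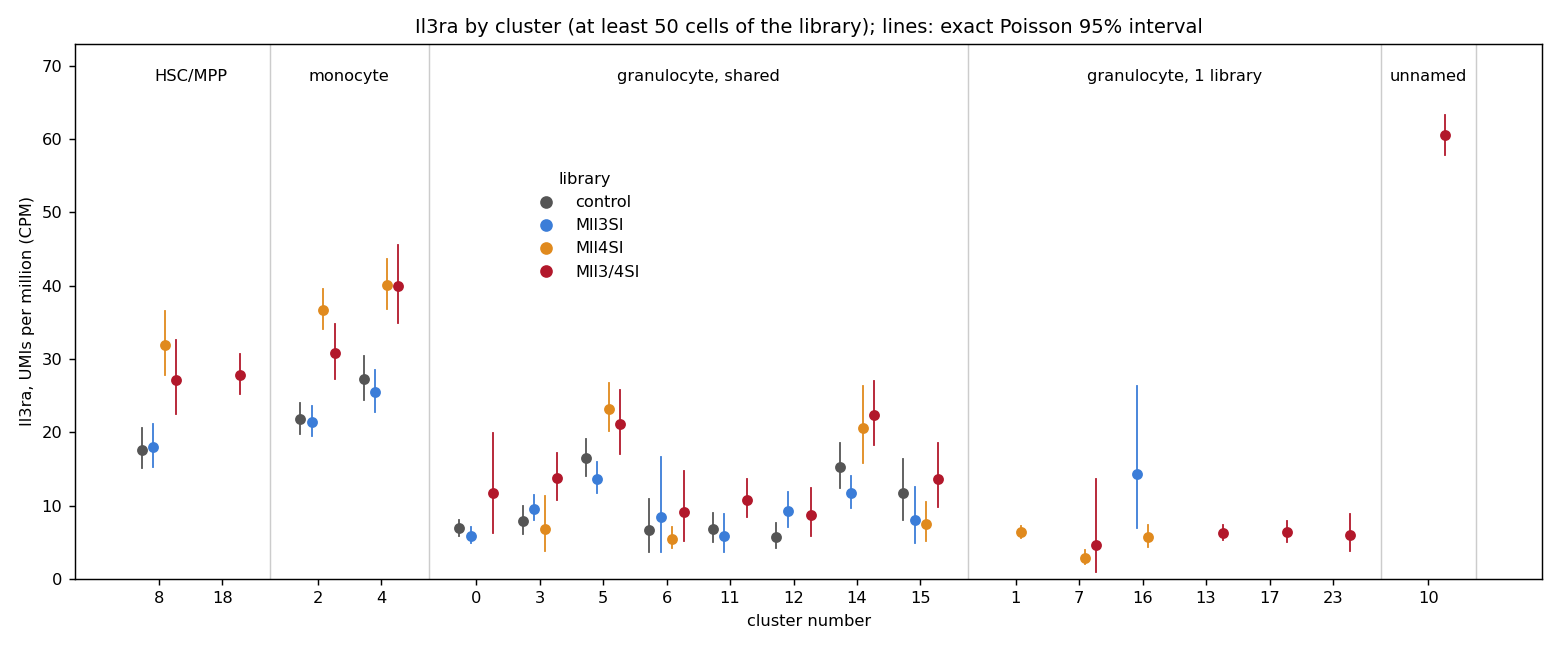
Il3ra level (vertical axis, CPM) in each cluster with at least 50 cells of the library, grouped along the horizontal axis by class, with points for libraries and lines for exact Poisson 95% intervals. The Mll4SI and Mll3/4SI points lie above control in HSC/MPP-like cluster 8 and in both monocyte-like clusters, and cluster 10 is the highest shown at 60.5 CPM.

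Counted per cell at an equal depth of 3000 UMIs, 6.50%, 6.88%, 11% and 12.1% of monocyte-like cells had an Il3ra UMI. Unthinned shares were 47.4%, 38.9%, 58.0% and 69.4%, at median depths of 28041.5, 22069, 24826 and 33172 UMIs. The thinned shares separated the same pairs of libraries as the CPM values. In HSC/MPP-like cells they were 5.03%, 4.28%, 8.57% and 7.07%, and in granulocyte-like cells 2.42%, 2.44%, 1.76% and 2.36%. Free RNA can give a UMI to any cell, and B-lymphoid-like cells had shares of 0% to 2.78%, at median depths of 12057 to 16389.5 UMIs. The lowest of these, 0 of 35 cells in Mll3/4SI, allows a share of up to 8.57%. The granulocyte-like shares lay within that range and the erythroid-like ones (2.39% to 3.90%) close to it, so no order of libraries is read from the Il3ra values of these 2 classes.

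Il6ra, the IL-6 alpha chain, was highest among the main classes in monocyte-like cells and was even there, at 57.4, 63.7, 57.4 and 58.3 CPM. Granulocyte-like cells had 22.8, 21.7, 23.1 and 22.2 CPM, with log2 ratios of -0.07, 0.01 and -0.04. The Mll3/4SI ratio depended on the clusters counted, being 0.18 without the library-specific clusters and 0.07 to 0.55 in the 8 clusters shared with control. Basophil/mast-like cells held 1 to 4 UMIs per library. HSC/MPP-like cells had 30.4, 30.6, 28.6 and 16.1 CPM, the last with a log2 ratio of -0.87 (-1.15 to -0.68). Cluster 18 (10.9 CPM) carried that low value, and cluster 8 of Mll3/4SI stood at 33.7 CPM, a log2 ratio of 0.15. Its partner Il6st was read in HSC/MPP-like cells at 20.8, 21.8, 21.5 and 11.1 CPM and in granulocyte-like cells at no more than 1.07 CPM.

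Counted together, the 7 genes stayed within 2-fold of control in granulocyte-like and monocyte-like cells, as nearly all genes did. All 7 passed a mean of 1 CPM in granulocyte-like, monocyte-like and HSC/MPP-like cells, and none was 2-fold above or below control in the first 2 of these classes in any library. Over all genes tested, 0.524%, 2.65% and 2.09% were past 2-fold in granulocyte-like cells of Mll3SI, Mll4SI and Mll3/4SI, and 0.468%, 1.96% and 1.11% in monocyte-like cells. The member medians of the log2 ratio were -0.06, -0.21 and -0.04 in granulocyte-like cells, where the medians of all genes were 0.02, -0.10 and -0.10. In monocyte-like cells the member medians were -0.07, 0.29 and 0.11, beside -0.01, -0.02 and -0.03 for all genes. The 2 medians lay furthest apart in Mll4SI, where 5 members were higher and 2 lower, from -0.18 for Csf3r to 0.65 for Il3ra.

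In HSC/MPP-like cells 0 of 7 members were past 2-fold in Mll3SI and in Mll4SI, where 0.961% and 3.38% of all genes were, and 2 of 7 were in Mll3/4SI, where 9.03% were. Those 2 were Csf1r, lower, and Csf2rb2, higher. In cluster 8 alone 0 of 7 were past 2-fold in Mll3SI, Mll4SI or Mll3/4SI, against 0.966%, 3.32% and 2.43% of all genes. The member medians were 0.03, 0.19 and 0.14 for the class. In erythroid-like cells, where 5 of 7 members passed the mean of 1 CPM, none was past 2-fold in any library (1.1%, 3.6% and 2.23% of all genes). In basophil/mast-like cells 6 of 7 passed it and 1 ratio was past 2-fold, that of Csf1r in Mll4SI, which rests on 4 UMIs against 1 (5.48%, 6.88% and 9.13% of all genes).

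**Figure D3:**
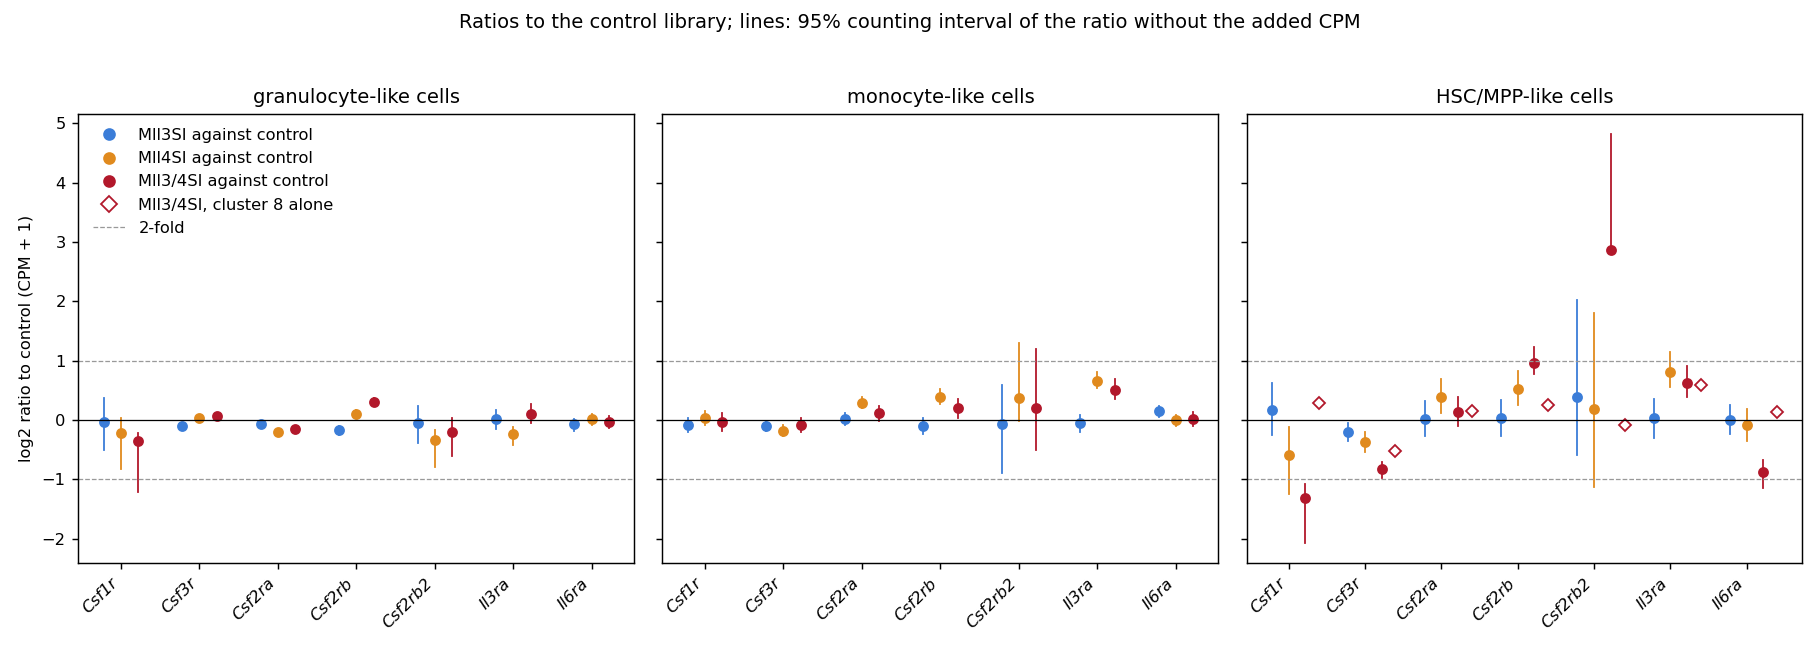
Log2 ratio of CPM + 1 to the control library (vertical axis) for each receptor gene in 3 cell classes, with 1 point per comparison, open diamonds for cluster 8 of Mll3/4SI alone and lines for the exact 95% counting interval of the ratio without the added CPM. Granulocyte-like and monocyte-like points lie within 2-fold, and the 2 HSC/MPP-like points beyond it, Csf1r at -1.32 and Csf2rb2 at 2.87 in Mll3/4SI, return to 0.29 and -0.08 in cluster 8.

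Cluster 10 of the Mll3/4SI library held RNA of all 7 receptors. It was read at 111.5 CPM for Csf3r, 94.3 for Csf2ra, 77.8 for Csf2rb, 60.5 for Il3ra, 39.8 for Il6ra, 22.7 for Csf1r and 7.26 for Csf2rb2. Its Il3ra level was above the 53.2 CPM of the basophil/mast-like cells of that library, and its Csf3r level was near the 108.5 CPM of the granulocyte-like cells. The other libraries put 5, 5 and 9 cells in this cluster, so no ratio to control was taken. Marker sums in cluster 10 were 33227 CPM for 17 granulocyte markers, 1169 for 12 monocyte markers, 1573 for 11 basophil/mast markers with 2 at 0, and 1290 for 18 HSC/MPP markers with 2 at 0. At 3000 UMIs per cell 71.8% of its cells had a UMI of at least 1 of the 7 genes. That share was 55.7%, 54.8%, 56.2% and 56.4% in granulocyte-like cells, 35.5% to 45.2% in HSC/MPP-like cells, 15.6% to 17.1% in erythroid-like cells and 9.09% to 11.4% in B-lymphoid-like cells.

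The cells that supplied each transcript differed between libraries accordingly. Monocyte-like cells gave 86.7% of Csf1r UMIs in control and 40.3% in Mll3/4SI, where cluster 10 gave 50.8%. Cluster 10 likewise gave 50.5% of the Il3ra UMIs of Mll3/4SI, 1892 of 3748. For Csf2rb2 the largest sources in Mll3/4SI were HSC/MPP-like cells (38.6%), cluster 10 (33.7%) and granulocyte-like cells (21.8%), and in control granulocyte-like cells (61.1%) and basophil/mast-like cells (20.4%). Granulocyte-like cells gave the largest share of Csf3r and Csf2ra UMIs in both, 68.7% and 74.7% for the control library and 58.8% and 58.2% for Mll3/4SI. Over all kept cells the Mll3/4SI log2 ratios were 0.86 for Il3ra, 0.82 for Csf2rb2 and 0.58 for Csf2rb, with 0 of 7 past 2-fold, as in Mll3SI and Mll4SI (0.585%, 2.38% and 2.58% of all genes in the 3 comparisons). Without clusters 10 and 18, an alternative chosen after seeing the data, they were 0.09, -0.13 and 0.42.

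**Figure D4:**
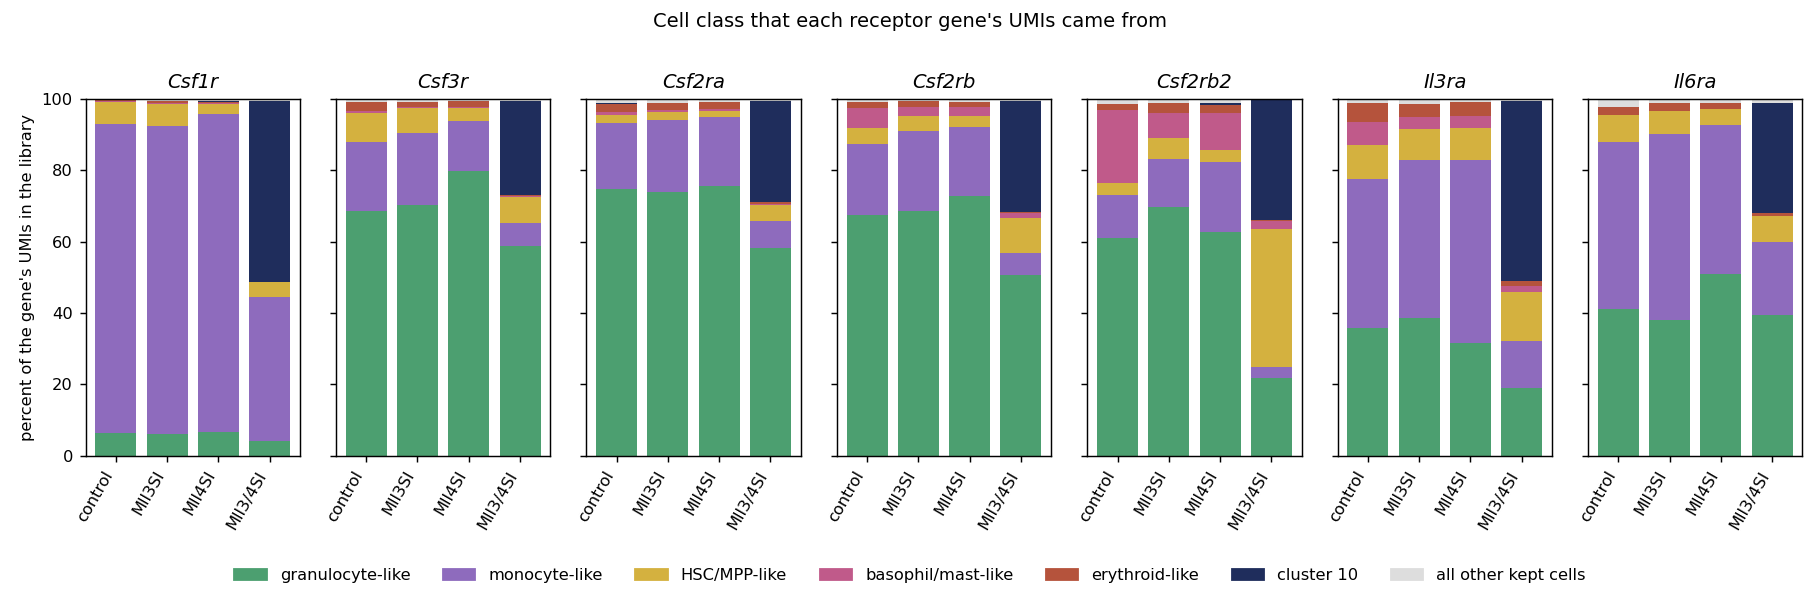
Share of each receptor gene's UMIs (vertical axis, percent of the gene's UMIs in that library) that came from each cell class, with 1 stacked bar per library. In Mll3/4SI cluster 10 supplied 50.8% of Csf1r and 50.5% of Il3ra UMIs, and HSC/MPP-like cells 38.6% of Csf2rb2 UMIs.

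Of the 3 pairs of receptor chains described here, the 2 of an alpha with a beta chain were close to their separate shares. They were found in the same cell about as often as those shares give. At 3000 UMIs, Csf2ra and Csf2rb were both seen in 3.41%, 2.87%, 3.21% and 3.40% of granulocyte-like cells, against products of the single shares of 3.04%, 3.0%, 3.16% and 3.25%. In cluster 10 Csf2rb and Il3ra were both seen in 3.51% of cells, against 3.27%. Further from its product in these sparse counts was Csf2rb with Csf2rb2 in cluster 18, seen together in 2.42% of cells (16 of 660), against 0.470%. These are 2 beta chains and the 2 near-copies of the set. Cells share a library and a range of RNA content, and the pairs were described without a test.

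Levels of the 7 genes over the 28 class-by-library units with at least 50 cells were set beside those of 10241 genes. The units share the same 4 libraries and their depth, so the correlations are descriptions. Csf1r was most like F13a1 and Apba1 (Pearson r of 0.87 each) and Bid (0.86), and Il6ra most like Nrp1 (0.91), Lmo1 and Soat1 (0.85 each). Csf3r was most like Mafg, Fgd4 and Ogfrl1 (0.91 each), and Csf2ra most like Xdh, Myo1f and Nfam1 (0.95 each). Csf2rb was most like Rin3 (0.95), Neat1 (0.92) and Cask (0.91), Csf2rb2 most like Atp6v0a1 (0.85), Lmo4 and Gm43445 (0.84 each), and Il3ra most like Lrpap1, Tmem50a and Napepld (0.88 each). Within the set Csf2rb and Csf2rb2 had the highest r, 0.80, and Il3ra stood apart from all 6 others, with r between -0.26 and 0.29.

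The signalling chain behind the receptors differed little between Mll3/4SI and control in HSC/MPP-like cells. Of 11 Jak and Stat genes 5 were higher and 6 lower in Mll3/4SI, with 0 past 2-fold and a median log2 ratio of -0.01. Of 14 adaptor and kinase genes, such as Shc1, Fes and Pik3cg, 9 were higher and 5 lower, again with 0 past 2-fold.

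Of the transcription factors that drive myeloid receptor genes, 8 of the 9 that passed a mean of 1 CPM were below control in the Mll3/4SI HSC/MPP-like cells. The list had 4 past 2-fold and a median of -0.91, beside 9.03% of all genes past 2-fold either way, 4.54% lower by that much, and a median of -0.06 for all genes. Summed markers of the lineages in which these factors act were lower in the same cells. From control to Mll3/4SI they were 8038 and 4728 CPM for granulocyte, 308 and 194 for monocyte and 503 and 225 for lymphoid-primed markers. These sums are no separate measure, since they hold some of the genes named here. Cebpe and Gfi1 are among the granulocyte, Irf8 among the monocyte and Flt3 among the lymphoid-primed markers. The part of the other markers in these values was not tested. Cebpb, a factor of stress granulopoiesis, was read at 102.5, 113.0, 65.2 and 25.7 CPM, a log2 ratio of -1.96 in Mll3/4SI. Cebpe, needed for late granule genes, had a ratio of -1.95, Irf8, needed for monocytes and dendritic cells, -1.37, and Gfi1, a repressor active in granulocyte precursors, -1.23. In cluster 8 of Mll3/4SI the differences were smaller, with 0 of 9 past 2-fold, but 7 were lower and 2 higher. The median there was -0.23, beside -0.07 for all genes. Ratios in that cluster were -0.46 for Cebpb, -0.41 for Cebpe, -0.30 for Gfi1 and 0.01 for Irf8. Of 20 related receptors 15 were lower and 4 were past 2-fold, among them Flt3, the receptor of lymphoid-primed progenitors (-1.40), the interferon-gamma receptor chain Ifngr2 (-1.48) and the TNF receptor Tnfrsf1b (-1.42). In cluster 8 this list stood at a median of 0.03, with 11 higher and 9 lower.

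Of 17 feedback and target genes 2 were past 2-fold higher and 2 lower in the Mll3/4SI HSC/MPP-like cells. Bcl2l1, a survival gene induced by STAT5, was read at 12.9, 13.7, 14.2 and 35.0 CPM, a log2 ratio of 1.37. That higher level lay in cluster 18, at 41.1 CPM. In cluster 8 of Mll3/4SI Bcl2l1 was at 14.7 CPM, a log2 ratio of 0.17 (-0.27 to 0.64). Ccnd1, the cyclin D1 gene, was read at 59.2, 42.5, 18.2 and 12.1 CPM, with ratios of -0.47, -1.65 and -2.20, and was also lower in cluster 8 of Mll3/4SI, by -0.95. No gene of these lists other than those named was past 2-fold in HSC/MPP-like cells at a mean of at least 10 CPM.

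In granulocyte-like cells of Mll3/4SI, where 2.09% of all genes were past 2-fold, 0 of 11 Jak and Stat genes, 0 of 14 adaptors and kinases and 0 of 13 related receptors were past 2-fold, and 1 of 13 feedback genes and 1 of 9 transcription factors were, both lower. Myc, a transcription factor that promotes growth, was read at 36.1, 54.6, 20.9 and 16 CPM, with log2 ratios of 0.58, -0.76 and -1.13, so that Mll3SI was above control and the other two below. The transcription factor was Irf8, at 7.16 CPM in control and 2.29 in Mll3/4SI. Pim1, a STAT5 target kinase, was read at 27.3, 37.6, 31.4 and 46.7 CPM, a log2 ratio of 0.75 in Mll3/4SI. Cebpa, a driver of the granulocyte fate, was read at 33.9, 40.2, 20.1 and 21.3 CPM and Myb, a progenitor factor, at 227, 264, 153 and 157 CPM. Both were higher in Mll3SI and lower in the other two libraries, as Myc was. Il11ra1, the IL-11 alpha chain, followed the same order at 15.7, 21.8, 7.80 and 10.8 CPM, and Il2rg, the common gamma chain, was read at 11, 10.5, 12.5 and 16.4 CPM. Of all kept cells the Elane-high cluster 5 held 6.91%, 9.34%, 4.47% and 2.77%, and cluster 14 held 3.63%, 6.01%, 1.25% and 2.46%. The mix of clusters within the granulocyte-like class thus differed between libraries, and its part in these values was not tested. The lists were compiled with earlier results of these data known and are given as counts only.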

How the data were processed

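Gene and antibody UMI counts per cell were read from the 4 deposited matrices, whose values are raw counts per the file headers. The submitters' processing notes name Cell Ranger 7.1.0 and mm10, and further settings are not given in the sources used here. The 7 genes and all gene lists were chosen with earlier results of these data known. Of the 32285 gene IDs 32235 were found in the GENCODE annotation of GRCm38.

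The kept cells had 500 or more genes, 1000 or more gene UMIs and no more than 10% mitochondrial UMIs, and 409, 594, 1001 and 411 doublets (control, Mll3SI, Mll4SI, Mll3/4SI) were removed with Scrublet at a rate of 0.8% per 1000 cells. Counts scaled to 10000 per cell were clustered jointly on 2000 variable genes, without the 7 genes, the markers, the lists or sex, mitochondrial, ribosomal and haemoglobin genes, with 30 components, 15 neighbours and Leiden resolution 1. A cluster was named from at least 3 markers at a log2 fold of at least 1 (10 CPM added), a lead of 2 markers over the next class and its top 10 genes (50 CPM added). This naming rule was set after clusters of these data had been seen. Clusters 8 and 18 formed the HSC/MPP-like class, and cluster 18 had as many basophil/mast as stem markers among its top 10 genes.

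UMIs were summed per library and class and given as CPM. Ratios are log2 of CPM + 1, over genes with a mean of at least 1 CPM, and a gene past 2-fold counts as called. With 1 library per group there is no test. Intervals are Poisson for levels, conditional binomial for ratios and Clopper-Pearson for shares, and shares were taken after thinning each cell to 3000 UMIs. A count of 0 allows up to 3 counts. Hashtag thresholds of 126 and 331 UMIs were chosen after seeing the data. Beside the 7 genes, the text names the 3 genes of highest r per member (mean of at least 5 CPM), and of each list (ligands, related receptors, Jak and Stat genes, adaptors and kinases, feedback and target genes, transcription factors) the genes with the largest Mll3/4SI ratios in granulocyte-like cells or past 2-fold at a mean of at least 10 CPM. Some genes that this rule names are not reported here. The ratios and their intervals were tested on simulated counts, and the clustering and class naming were not. Clustering used scanpy 1.11.5 and scikit-learn 1.9.0 with igraph 0.11.9 and leidenalg 0.10.2. Tables and intervals used Python 3.11.15 with pandas 2.3.3, scipy 1.17.1 and numpy 2.4.6, and plots matplotlib 3.10.9. Alternatives changed the added CPM, the scaling, the cell and doublet filters, the clustering, the class assignment, the hashtags used and the thinning.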

Additional observations from a re-analysis of the deposited data

How the results depend on the processing

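No paired analysis was possible because each group has 1 library. Of 1029 ratios of the 7 genes recomputed under the alternatives, 877 moved by less than their counting interval, 148 moved by more and 4 turned a ratio past 2-fold to the other sign. Sign changes were common among ratios near 0, with 83 in 984 planned recomputations of the 82 ratios within 2-fold, spread over 44 of them. Both ratios past 2-fold were those of Mll3/4SI HSC/MPP-like cells. Csf1r went from -1.32 to 0.071 at Leiden resolution 0.5 and to 0.29 without library-specific clusters, and Csf2rb2 from 2.87 to -0.025 and -0.078, since neither setting counts cluster 18 in the class. The number of members past 2-fold there went from 2 to 1 with 10 CPM added and to 0 under the same 2 settings. With cells classed by their nearest control cells the HSC/MPP-like median of Mll3/4SI went from 0.14 to 0.91, the monocyte-like median from 0.11 to 0.51 and the monocyte-like count from 0 to 1. The granulocyte-like median of Mll3/4SI went from -0.04 to 0.17 at Leiden resolution 2 and to -0.14 in Hashtag2 cells alone; the cause was not tested. The Il3ra ratio kept its sign under 12 of 12 alternatives in monocyte-like cells of Mll4SI (0.47 to 0.78) and Mll3/4SI (0.31 to 0.99) and in HSC/MPP-like cells of Mll4SI (0.60 to 0.87) and Mll3/4SI (0.28 to 1.27), and changed to 0.36 in Mll4SI granulocyte-like cells without library-specific clusters. Over all kept cells of Mll4SI it went from 0.18 to -0.085 as a mean over cells. Csf3r stayed below control in Mll3/4SI HSC/MPP-like cells under 12 of 12 (-0.92 to -0.13), and Il6ra there changed to 0.15 without library-specific clusters. Leaving mitochondrial and ribosomal genes out of the total moved 70 of 84 levels, not thinning or thinning to 6000 UMIs moved 159 of 168 shares, and a mean of 10 CPM lowered the number of all genes past 2-fold in Mll3/4SI from 1156 to 499 in HSC/MPP-like, 236 to 118 in granulocyte-like and 133 to 39 in monocyte-like cells, from 433 to 114, 298 to 112 and 235 to 77 in Mll4SI, and from 123 to 28, 59 to 21 and 56 to 17 in Mll3SI. Depth limits Csf1r, Csf2rb2 and Il6ra in basophil/mast-like cells and Csf2rb2 in cluster 8, where a few UMIs set each value.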

Other observations

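The ligands of these receptors were nearly silent in the same cells, apart from Il6, which was singled out after its values were seen. Of the 7 ligand genes 2, Csf1 and Il6, had a mean of at least 1 CPM in HSC/MPP-like cells. Il6 alone was past 2-fold there, higher in Mll4SI and in Mll3/4SI than in control. Il6 was read there at 0.313, 0.602, 2.96 and 32.5 CPM in control, Mll3SI, Mll4SI and Mll3/4SI, from 3, 5, 20 and 604 UMIs, and 27.7% of the Mll3/4SI cells had a UMI. Of the 604 UMIs 601 lay in cluster 18 (42.0 CPM, 36.0% of its cells), while cluster 8 of that library held 3. The 20 UMIs of Mll4SI lay in cluster 8 (2.97 CPM, 3.58% of its cells). Basophil/mast-like cells had 34.8, 38.0, 68.7 and 61.4 CPM of Il6, and granulocyte-like and monocyte-like cells at most 0.126 and 0.25 CPM. Erythroid-like cells had 1.77, 1.45, 11.4 and 2.30 CPM, and cluster 10 of Mll3/4SI had 9.50 CPM (9.67% of its cells). Cluster 18 as a whole had Il6ra at 10.9 CPM, below the 33.7 CPM of cluster 8 of that library.

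A further unnamed group, cluster 24, led by the MHC class II genes Cd74, H2-Aa and H2-Eb1, had Il6ra at 124, 106, 93.1 and 125 CPM in 51, 33, 25 and 24 cells of control, Mll3SI, Mll4SI and Mll3/4SI. Each value lay above that of the monocyte-like cells of the same library.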
